A study of Mus musculus with 10 samples.

Results

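Dlx1, Dlx2, Dlx5, Dlx6, Lhx6, Sp8 and Sp9 encode transcription factors of forebrain inhibitory interneurons, and their levels were read in the whole brains of mice with and without a Glo1 transgene. A probe set was taken where the platform annotation gave it 1 of these symbols alone. Each of the 7 genes had 1 such probe set, so the 7 members stood for 7 of 19938 genes with a value and 7 of 28944 probe sets tested. Values are log2 expression values as deposited, so a difference of 1 is a doubling of the signal. Levels of different genes are not set against each other, because probe sets differ in brightness per transcript.

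Dlx1, Dlx2, Dlx5 and Dlx6 are homeodomain factors of the Distal-less family that drive progenitors of the embryonic ganglionic eminences toward inhibitory neurons and promote glutamate decarboxylase expression. Lhx6, a LIM-homeodomain factor, acts in interneurons born in the medial ganglionic eminence, which become somatostatin and parvalbumin cells of the cortex. Sp8 and Sp9 are zinc finger factors of the lateral and caudal eminences and of the neuroblasts that migrate into the olfactory bulb, where new interneurons are added throughout adult life.

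RNA came from whole brains of 5 transgenic mice (Tg), which overexpress Glo1 from a bacterial artificial chromosome, and 5 wild-type littermates (WT). All 10 were untreated, group-housed adult males on a C57Bl/6J background. Each brain was hybridised to its own Affymetrix array. Replicate numbers name mice, and the labels state no pairing of equal numbers between the groups. No label names the promoter, copy number or insertion site of the transgene. In bulk tissue, fewer cells of a type and less RNA per cell cannot be told apart.

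Glo1, which encodes glyoxalase 1, read 11.88 to 12.23 in Tg and 10.27 to 10.75 in WT, without overlap, as the labels require. The list means of neuron markers lay between 12.33 and 12.39 on every array. WT replicate 2 stood apart from the other brains. Its mean over 15 measured cerebellar genes was 8.52, against 10.57 to 10.67 on the other WT arrays and 10.41 to 10.51 in Tg, and 14 of the 15 were lowest there. Gabra6, a receptor subunit of cerebellar granule cells, read 6.03 on that array and 10.84 to 11.29 on the others. Of 13 striatal genes, 9 were highest on WT replicate 2. Results that rest on that array are therefore given with and without it.

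The promoters shown are those of Dlx1 and Dlx2, neighbouring genes of chromosome 2 that moved most alike over the 10 arrays, and of Sp9, on the same chromosome. They are RefSeq sequences of mouse assembly GRCm38.p6, from 250 bases before to 50 bases after the annotated start, read 5′ to 3′ on the strand of the gene. Capitals mark GC boxes (GGGCGG, the core bound by Sp-family factors, or CCGCCC on the other strand) and CCAAT boxes (CCAAT, or ATTGG on the other strand). Dlx1 lies on the plus strand at chr2:71529195-71529494, Dlx2 on the minus strand at chr2:71546705-71547004 and Sp9 on the plus strand at chr2:73271676-73271975.
Dlx1: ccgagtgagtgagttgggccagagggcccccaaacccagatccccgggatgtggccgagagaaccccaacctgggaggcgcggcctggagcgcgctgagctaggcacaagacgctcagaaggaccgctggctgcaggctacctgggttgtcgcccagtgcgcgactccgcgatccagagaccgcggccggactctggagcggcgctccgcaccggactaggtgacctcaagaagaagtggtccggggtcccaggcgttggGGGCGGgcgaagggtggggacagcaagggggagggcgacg
Dlx2: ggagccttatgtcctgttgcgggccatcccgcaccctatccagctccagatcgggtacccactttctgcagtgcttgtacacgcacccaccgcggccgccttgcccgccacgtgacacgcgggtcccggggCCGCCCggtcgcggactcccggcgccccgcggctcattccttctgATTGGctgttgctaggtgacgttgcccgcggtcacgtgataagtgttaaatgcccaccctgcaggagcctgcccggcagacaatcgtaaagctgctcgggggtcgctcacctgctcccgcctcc
Sp9: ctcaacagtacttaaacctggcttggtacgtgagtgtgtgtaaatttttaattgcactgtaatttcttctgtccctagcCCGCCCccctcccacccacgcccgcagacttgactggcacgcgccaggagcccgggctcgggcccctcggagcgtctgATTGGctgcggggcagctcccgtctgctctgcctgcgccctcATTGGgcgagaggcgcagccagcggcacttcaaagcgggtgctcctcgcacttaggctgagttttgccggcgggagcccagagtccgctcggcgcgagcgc
The Dlx1 window held a GC box that began 10 bases after the start and no CCAAT box. Counted from the start, with bases before it negative, Dlx2 held a GC box at -119 and a CCAAT box at -74. Sp9 held a GC box at -171 and CCAAT boxes at -93 and -51. Of 32851 promoters of this length, 35.7% held a GC box and 37.4% a CCAAT box, searched on both strands. The homeodomain core TAATTA, found in 5.29% of promoters, was in none of these 3 windows. Of the 3 start sites of Sp8, the one numbered 3 in the table had it at -188, with no base shared with another motif searched. Guanine and cytosine made up 69.3%, 66.3% and 63.7% of the Dlx1, Dlx2 and Sp9 windows, against a median of 52.7% over all entries. The table held 9 start sites for 5 of the 7 members, and Dlx5 and Dlx6 are named only. A letter match describes the window and shows no binding.

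The transgenic and wild-type brains were compared to ask whether Glo1 overexpression went with a different level of these factors. None of the 7 passed the threshold of an adjusted p under 0.05 in limma's moderated test, and the adjusted p of each was 0.9998. Over all probe sets 0.0345% passed, 0.00691% higher and 0.0276% lower in Tg. At an unadjusted limma p under 0.05, Dlx2 and Sp8 were higher in Tg and no member was lower, where 2.21% of all probe sets reached it, 0.985% higher and 1.23% lower. The Tg mean was the higher for 4 of 7 members, against 47.8% of probe sets. The median difference, Tg minus WT, was 0.041 over the members and -0.0034 over all 19938 genes. Tg and WT arrays overlapped for all 7, while 0.149% of probe sets had every Tg array above every WT array and 0.311% every one below.

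Dlx1, which with Dlx2 sets the interneuron programme in eminence progenitors and persists in mature interneurons, read 9.30, 8.90, 9.72, 9.37 and 8.84 in Tg replicates 1 to 5 and 8.85, 9.02, 9.19, 8.85 and 9.02 in WT replicates 1 to 5. Tg replicates 1, 3 and 4 were above every WT array, and Tg replicate 5 was below all of them. The means were 9.23 ± 0.364 and 8.99 ± 0.142 (SD, n = 5 each), a difference of 0.24 (SE 0.149, 95% interval -0.086 to 0.566; limma adjusted p = 0.9998, two-sided exact permutation p = 0.230). Without Tg replicate 3 the difference was 0.12. The spread of Dlx1 within groups, 0.276 pooled, exceeded that of 97.5% of probe sets.

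Dlx2 read 8.49, 8.27, 8.64, 8.53 and 8.13 in Tg and 8.11, 8.24, 8.33, 8.09 and 7.93 in WT. The same 3 Tg arrays lay above every WT array, and all 5 lay above the WT median. The means were 8.41 ± 0.208 and 8.14 ± 0.150 (SD, n = 5 each), which is 1.21-fold (difference 0.28, SE 0.101, 95% interval 0.055 to 0.496; limma adjusted p = 0.9998, two-sided exact permutation p = 0.0556). The smallest p that 5 against 5 arrays allow in the permutation test is 0.00794. With single arrays left out the difference ranged from 0.22 to 0.35.

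Dlx5, which acts downstream of Dlx1 and Dlx2 in maturing interneurons, read 8.32, 8.08, 8.42, 8.23 and 7.89 in Tg and 8.05, 8.41, 8.22, 8.21 and 8.20 in WT. Tg arrays lay on both sides of the WT arrays, with the highest and the lowest value both in Tg. The difference was -0.03 (95% interval -0.241 to 0.177), and it was 0.04 without Tg replicate 5 and 0.01 without WT replicate 2. Dlx6, its neighbour on chromosome 6, read 8.17, 8.11, 8.27, 8.11 and 8.18 in Tg and 8.18, 8.60, 8.17, 8.13 and 8.16 in WT. WT replicate 2 was far above the rest, and the other 9 arrays lay between 8.11 and 8.27. The difference was -0.08 (95% interval -0.267 to 0.102), and 0.0062 without WT replicate 2.

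Lhx6 varied least of the members. It read 8.58, 8.63, 8.68, 8.61 and 8.62 in Tg and 8.55, 8.73, 8.59, 8.63 and 8.63 in WT, so the groups lay on top of each other. The difference was -0.0016 (95% interval -0.096 to 0.092), and its sign turned in 5 of 18 alternatives. Only 9.31% of probe sets had a smaller spread within groups than Lhx6, at 0.053.

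Sp8 read 6.70, 6.66, 6.89, 7.09 and 6.65 in Tg and 6.59, 6.87, 6.47, 6.23 and 6.49 in WT. All Tg arrays were above 4 of the WT arrays, and WT replicate 2 lay among the Tg values. The means were 6.80 ± 0.188 and 6.53 ± 0.232 (SD, n = 5 each), which is 1.20-fold (difference 0.27, SE 0.116, 95% interval 0.015 to 0.522; limma adjusted p = 0.9998, two-sided exact permutation p = 0.0794). Sp8 was dim: 27.3% of probe sets were dimmer, so its fold can be understated and its signal over background is not known here. Sp9, the closest paralog of Sp8, read 8.60, 8.53, 8.87, 8.76 and 8.52 in Tg and 8.48, 8.85, 8.74, 8.42 and 8.59 in WT. Its groups covered nearly the same range. The difference was 0.04 (95% interval -0.163 to 0.245), and -0.01 without Tg replicate 3.

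**Figure D1:**
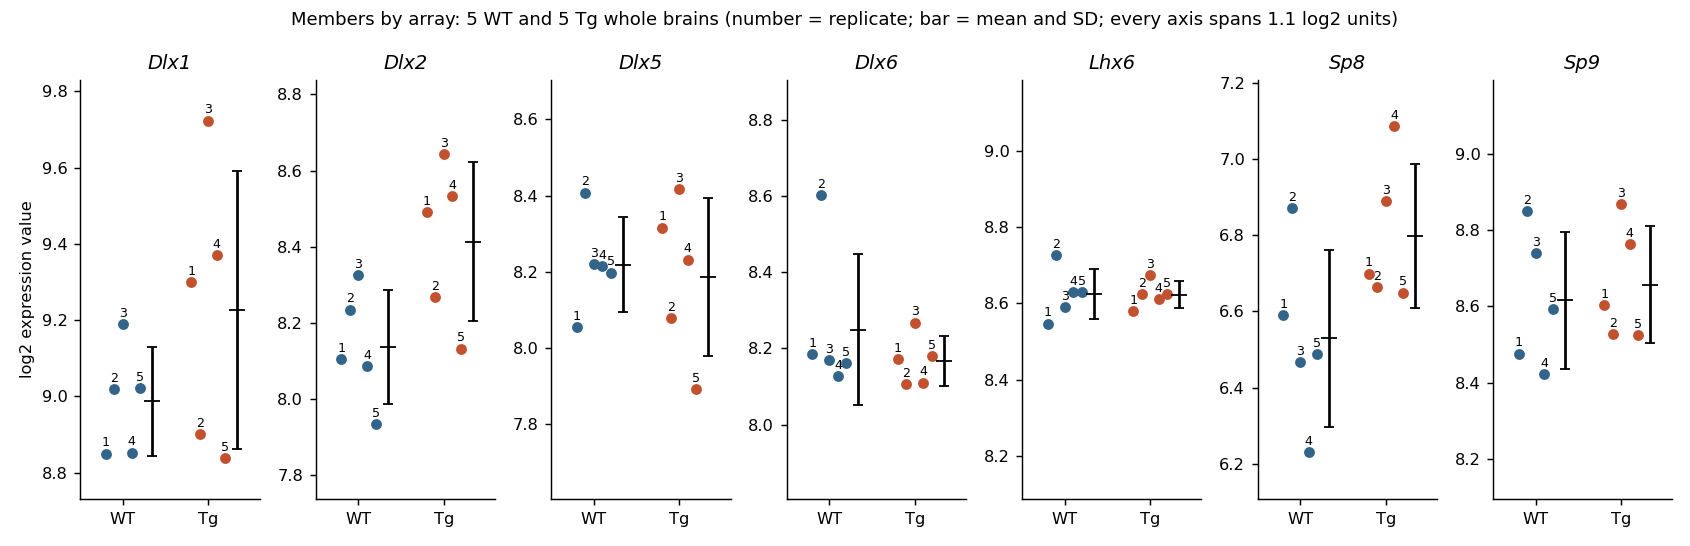
Log2 expression value of each member on every array (y axis, log2 units, each panel spanning the same range), with WT in blue, Tg in red, the replicate number beside each point and the mean and SD as bars (n = 5 each). Tg replicates 1, 3 and 4 are above every WT array for Dlx1 and Dlx2, WT replicate 2 stands alone at 8.60 for Dlx6, and Lhx6 hardly varies.

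Dlx6 and Dlx5 lie in gene order near the stretch of chromosome 6 whose genes were lower in Tg, and their place relative to it was examined. Between Dlx5 and Nxph1 lay 9 measured genes, with differences from -0.11 to 0.09 (median -0.015), and 0 of the 9 passed. Nxph1, which encodes a neurexin ligand made by inhibitory neurons, read 9.55 ± 0.072 in Tg and 9.86 ± 0.068 in WT (SD, n = 5 each), a difference of -0.31 (limma adjusted p = 0.125). Each of its 5 Tg arrays was below every WT array. Ndufa4, which encodes a mitochondrial respiratory chain protein, was the next gene and fell by 0.79 (95% interval -0.896 to -0.676; limma adjusted p = 3.67e-05). The intervals of Dlx5 and Dlx6 include 0 and lie above that of Ndufa4.

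**Figure D2:**
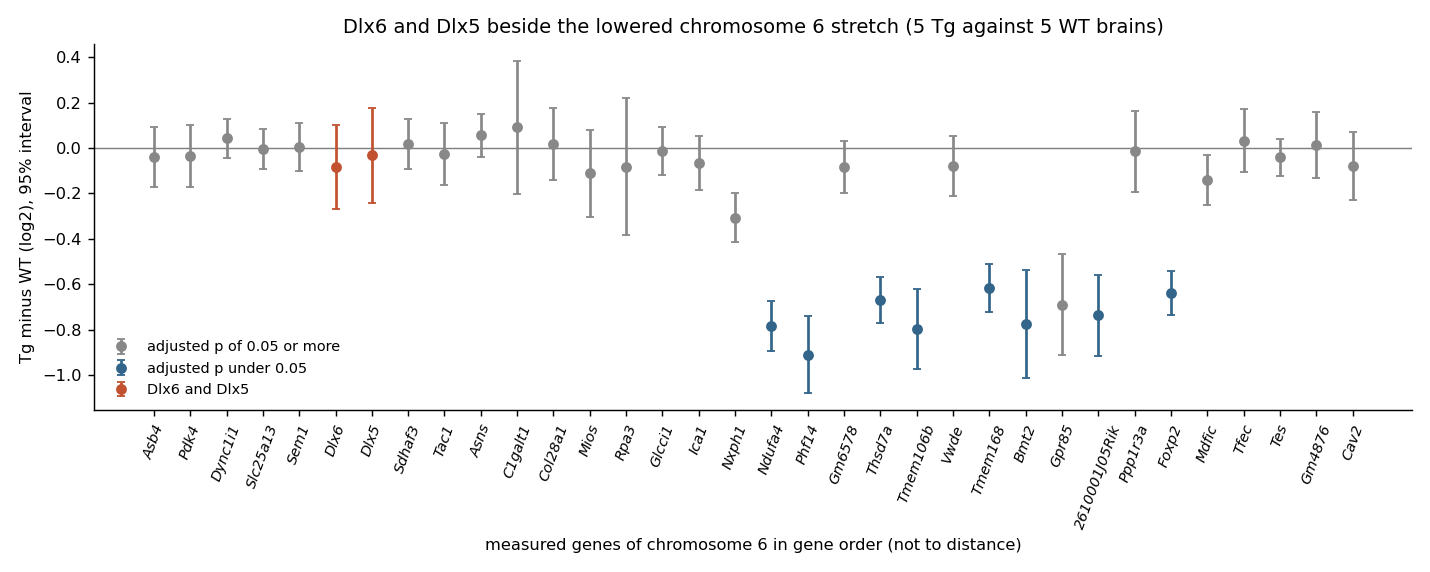
Difference Tg minus WT in log2 units (y axis) with its 95% interval for measured genes of chromosome 6 in gene order (x axis, not to distance), 5 Tg against 5 WT brains. Dlx6 and Dlx5, in red, and the genes beside them lie near 0, while the genes from Ndufa4 on that passed the adjusted threshold, in blue, lie between -0.91 and -0.62.

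Whether the members rose and fell together was asked over the 10 arrays, each from its own mouse. Every one of the 21 pairs had a Pearson r above 0 (0.035 to 0.862, median 0.576). Without WT replicate 2 all 21 stayed above 0, with a median of 0.457. After Benjamini-Hochberg adjustment over the 21 pairs, 1 pair passed by Pearson and 3 passed by Spearman, and 9 had an unadjusted permutation p under 0.05 by Pearson. Deviations from the genotype means had a median r of 0.588, and 0 of 21 pairs passed there in an exact permutation test within genotypes.

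Dlx1 and Dlx2 were the pair that passed by Pearson (r = 0.862, permutation adjusted p = 0.0204; rho = 0.758, adjusted p = 0.0714). Their r was 0.686 without Tg replicates 3 and 4, the arrays farthest from the Dlx1 median, and 0.845 for deviations from genotype means (exact permutation within genotypes, adjusted p = 0.0658). The call ended without Tg replicate 1, 3 or 4 or WT replicate 1 or 4, where r lay between 0.795 and 0.856 and the adjusted p between 0.0531 and 0.246. Among 12903 ranked genes, 0.0388% had a higher r with Dlx2 than Dlx1 had. Conversely, 0.217% had a higher r with Dlx1 than Dlx2 had.

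The 3 pairs that passed by Spearman were Dlx1 with Dlx5 (rho = 0.818), Dlx1 with Sp9 (rho = 0.818) and Dlx5 with Sp9 (rho = 0.830), each with a permutation adjusted p of 0.0416. Their Pearson r were 0.686, 0.756 and 0.716 (permutation adjusted p = 0.0855 each). Without WT replicate 2, Dlx1 rose and fell with Sp9 at r = 0.922 (permutation adjusted p = 0.0103) and with Dlx5 at 0.824 (0.0439). Dlx5 with Sp9 then had an r of 0.641 (permutation adjusted p = 0.162) and no longer passed by Spearman (rho = 0.767, adjusted p = 0.0760). Sp8 and Sp9 had an r of 0.698 (permutation adjusted p = 0.0855; rho = 0.709, adjusted p = 0.0807) and 0.662 without WT replicate 2.

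Dlx6 and Lhx6 followed the other members less closely. Their r with each other was 0.743 (permutation adjusted p = 0.0855; rho = 0.188, adjusted p = 0.782), but 0.256 without WT replicate 2, where both read highest, and -0.550 without Tg replicate 3 as well. Dlx6 had an r of 0.063 with Dlx1 and 0.035 with Dlx2, and Lhx6 of 0.198 and 0.105. Without WT replicate 2 these were 0.527, 0.302, 0.402 and 0.219. With Sp9 the r was higher, at 0.576 for Dlx6 and 0.580 for Lhx6 (permutation adjusted p = 0.109 and 0.153). Without that array it was 0.457 and 0.391. Lhx6 with Dlx5 had an r of 0.513, and 0.309 without that array. Dlx5 and Dlx6, which are chromosomal neighbours, had an r of 0.517 (rho = 0.321), and 0.337 without WT replicate 2. Sorted after the values were seen, the 10 pairs among Dlx1, Dlx2, Dlx5, Sp8 and Sp9 had a median r of 0.685 (0.700 without WT replicate 2). The 11 pairs with Dlx6 or Lhx6 had a median of 0.326 (0.309).

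**Figure D3:**
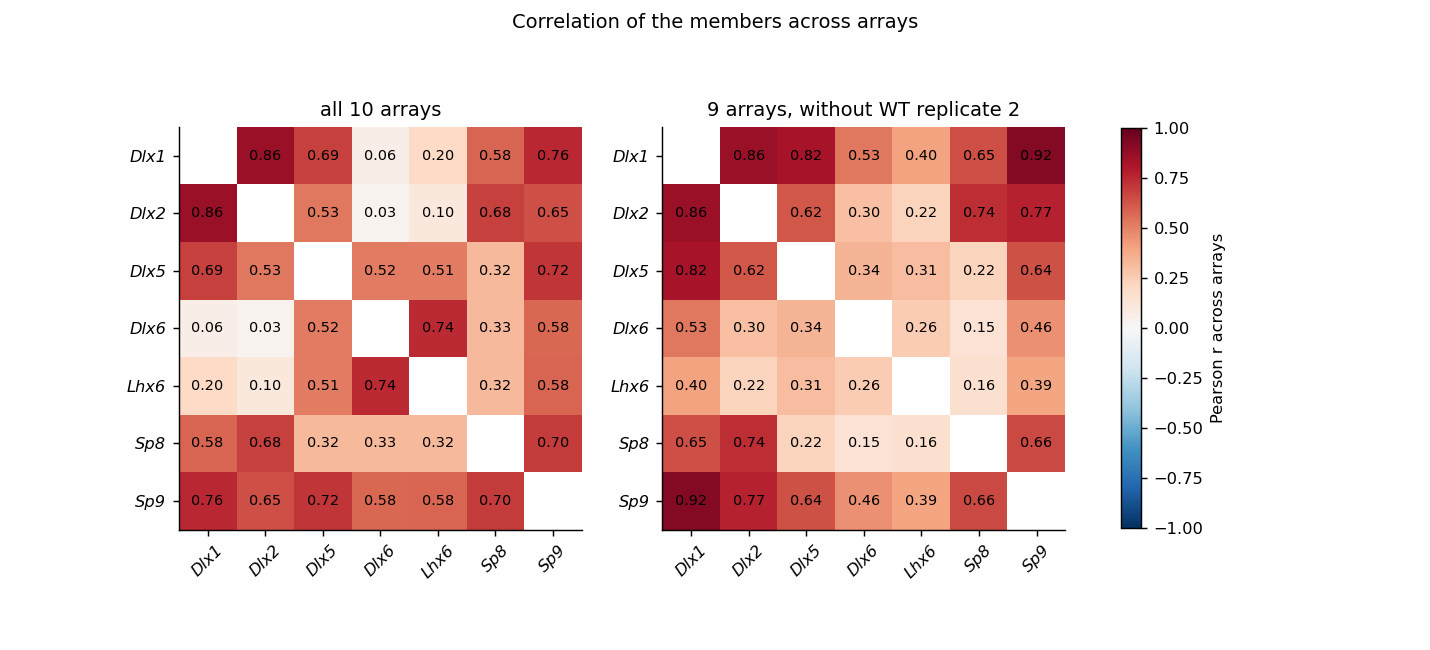
Pearson r of each pair of members across arrays (colour and printed value), over 10 arrays on the left and over 9 without WT replicate 2 on the right. All off-diagonal values are above 0, the values are high among Dlx1, Dlx2 and Sp9 on both sides, and the r of Dlx6 with Lhx6 is 0.74 on the left and 0.26 on the right.

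Olfactory bulb genes were set beside the members to ask whether the members rise and fall with them. The list held genes of mitral and tufted cells, the projection neurons of the bulb, and of olfactory sensory axons, and 12 of 13 were measured. Its mean was 8.57, 8.47, 9.02, 8.80 and 8.38 in Tg and 8.34, 8.38, 8.57, 8.34 and 8.53 in WT. Tg replicates 3 and 4 were higher than the other 8 arrays. S100a5, a calcium-binding protein of olfactory sensory neurons, ranged from 6.92 to 9.11 over the arrays, and Cdhr1, a cadherin of mitral and tufted cells, from 7.18 to 8.78, both highest on Tg replicate 3. Of the 12 genes, 9 were highest on Tg replicate 3 or 4.

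Dlx1 followed that list mean closely (r = 0.953, permutation adjusted p = 0.0021 over 21 relations; rho = 0.891, adjusted p = 0.0235). Without the 2 extreme arrays, Tg replicates 3 and 4, r was 0.832, and without WT replicate 2 it was 0.963. For deviations from the genotype means r was 0.944 (exact permutation within genotypes, adjusted p = 0.0015). The relation passed with any 1 array left out, at r between 0.890 and 0.971.

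Dlx2 followed the list mean with r = 0.798 (permutation adjusted p = 0.0418; rho = 0.782, adjusted p = 0.0763). Its call held only without WT replicate 2 or 5 and ended without any of the other 8 arrays (r 0.680 to 0.834). Fewer arrays can end the call though r is no lower, as without Tg replicate 1 (r = 0.834, permutation adjusted p = 0.0678). Without Tg replicates 3 and 4, r was 0.455, so the size of r rests largely on those arrays. For deviations from the genotype means r was 0.712 (exact permutation within genotypes, adjusted p = 0.234). Sp9 had an r of 0.680 (permutation adjusted p = 0.133; rho = 0.733), and 0.942 without WT replicate 2 (permutation adjusted p = 0.00042). Without Tg replicates 3 and 4 it was 0.364. The r of Dlx5 was 0.520 and that of Sp8 0.584, and without Tg replicates 3 and 4 they were 0.302 and 0.040. Dlx6 had an r of -0.105 and Lhx6 of 0.176, and without WT replicate 2 these were 0.458 and 0.543. Whether these brains held different amounts of olfactory bulb tissue was not tested, since the labels give no dissection weights.

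**Figure D4:**
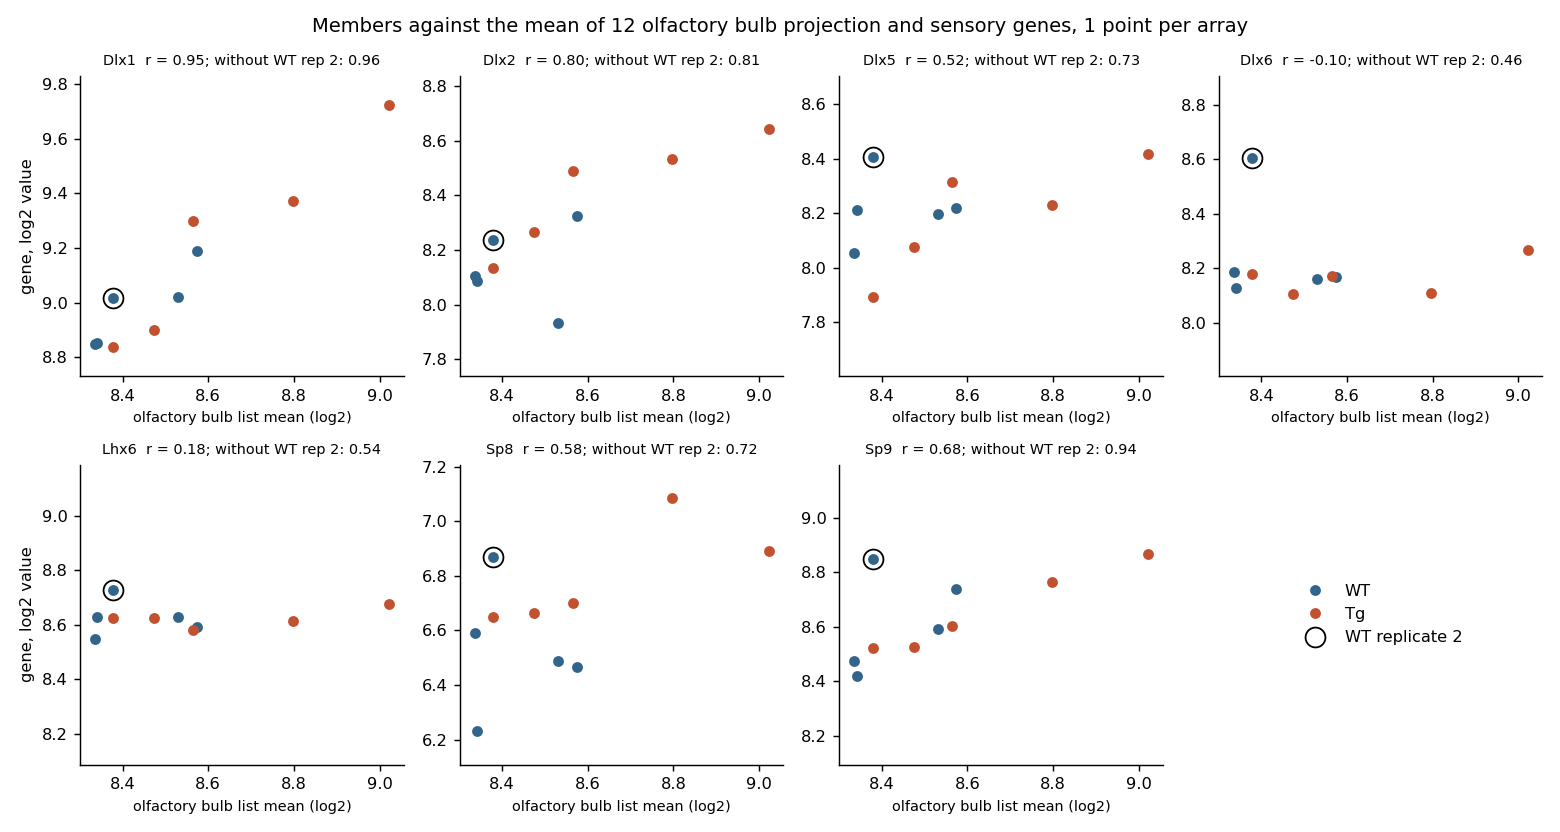
Log2 value of each member (y axes) against the mean log2 value of 12 olfactory bulb projection and sensory genes (x axes), 1 point per array, WT blue and Tg red, WT replicate 2 ringed. Dlx1 lies along a line over all 10 arrays, Sp9 does so apart from WT replicate 2, and Dlx6 and Lhx6 are nearly flat.

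Cerebellar and striatal list means were compared with the members in the same way, and 0 of these 14 relations passed by Pearson over 10 arrays. The cerebellar mean had an r of -0.938 with Dlx6 (permutation adjusted p = 0.210) and 0.045 without WT replicate 2, and of -0.746 and -0.298 with Lhx6 (permutation adjusted p = 0.133 with all arrays). Sp8 was lower where cerebellar genes were higher by rank (rho = -0.855, permutation adjusted p = 0.0297). By Pearson its r was -0.403, and -0.823 without WT replicate 2 (permutation adjusted p = 0.0282). Apart from that array the cerebellar mean was lower in Tg (10.41 to 10.51) than in WT (10.57 to 10.67), so genotype enters this r. For deviations from the genotype means r was -0.661 (exact permutation within genotypes, adjusted p = 0.160), and -0.504 without WT replicate 2. The striatal mean was 10.08 on WT replicate 2 and 9.84 to 9.92 on the others. Without that array its r with the 7 members lay between -0.734 and -0.251, and none passed.

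Other genes of the interneuron programme were read from lists, and 0 genes of all 15 lists passed the adjusted threshold in either direction. Likeness is given as the Pearson r of a gene with the mean of the 7 members over 10 arrays, as a description. That mean ran from 8.08 to 8.50, highest on Tg replicate 3, and its difference was 0.10, or 0.15 without WT replicate 2. Over all 19938 genes the median r was 0.093, and 9.75% had an r above 0.5.

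Upstream of the Dlx genes, 6 of 7 listed regulators were measured, and the Tg mean was the higher for 6 of 6 (median difference 0.075), against 47.2% of all genes. Meis2, a TALE homeodomain cofactor of striatal and olfactory bulb progenitors, differed by 0.11 and had an r of 0.789 (0.933 without WT replicate 2). Pbx3, a partner of Meis factors, had an r of 0.520 (0.849) and was lowest on WT replicate 2. The patterning genes Gsx2, at 0.262 (0.134), and Nkx2-1, at 0.451 (0.334), followed less, and Otx2 had an r of -0.503 (-0.441).

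Of 11 measured Dlx targets and partners, 5 had a higher mean in Tg (median difference -0.0084) and 2 had an r above 0.5. Gad1, which encodes a glutamate decarboxylase that makes GABA, had an r of 0.557 (0.775 without WT replicate 2). Gad2, its paralog, had 0.198 (0.305). Slc32a1, the vesicular GABA transporter, differed by -0.08 and had an r of 0.130 (0.0058).

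In the Lhx6 lineage 14 genes were measured, 6 had a higher mean in Tg, and the median r was 0.017 (-0.077 without WT replicate 2). Npy, a peptide of a class of these interneurons, was the 1 with an r above 0.5, at 0.780 (0.751 without WT replicate 2), while Sst had 0.436 (0.278) and Pvalb -0.507 (-0.740). Cxcr4, a chemokine receptor that guides migrating interneurons, differed by 0.12 (two-sided exact permutation p = 0.0159, limma adjusted p = 0.9998), with 4 of 5 Tg arrays above every WT array. Nxph1, described with chromosome 6, is the other gene of this list with an unadjusted p under 0.05.

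Caudal and lateral eminence interneuron genes had 12 measured members, 4 with a higher mean in Tg, and a median r of 0.311 (0.210 without WT replicate 2). Vip and Htr3a, a peptide and a serotonin receptor of these cells, were the 2 above 0.5, at 0.725 (0.697) and 0.671 (0.626). Htr3a differed by 0.10. Others went the opposite way, with Cnr1 lowest at -0.613 (-0.744). Reln had an r of -0.481 (-0.627), Prox1 of -0.462 (-0.335) and Npas3 of -0.456 (-0.504). Calb2 had -0.156, and 0.645 without WT replicate 2.

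Olfactory bulb neuroblast, granule and periglomerular genes had 17 measured members, 14 of them with a higher mean in Tg (median difference 0.046). Their median r was 0.487 (0.524 without WT replicate 2), and 8 had an r above 0.5. Scgn, a calcium-binding protein of bulb interneurons, read 6.47 ± 0.541 in Tg and 5.98 ± 0.214 in WT (SD, n = 5 each) and differed by 0.49 (limma adjusted p = 0.9998). It had an r of 0.860 (0.970). Scgn was too dim for the upper 60% of signal, so its signal over background is not known here. Th, the dopamine synthesis enzyme of periglomerular cells, had an r of 0.884 (0.928) and differed by 0.21. Tshz1, a zinc finger factor of bulb interneurons, had 0.847 (0.905), and Prokr2, a receptor that guides neuroblasts into the bulb, 0.716 (0.757). Dcx, which marks migrating neuroblasts, had 0.696 (0.689). Pax6 and Etv1, which the cerebellum also expresses, had -0.368 (-0.125) and -0.413 (-0.335), and a part of the cerebellum in these values was not tested. Sox11 and Tubb3 also lay below 0, at -0.052 (-0.068) and -0.061 (-0.297).

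By the median r of single genes, projection and sensory genes of the olfactory bulb followed the members most of the 15 lists. That median was 0.792 (0.847 without WT replicate 2), with 9 of 12 above 0.5. By the r of the list mean they did not rank first, at 0.784 (0.965). The neuroblast, granule and periglomerular list had 0.884 (0.981), and Dlx targets and partners 0.828 (0.867). Microglial markers came close, at 0.749 (0.805), as did upstream regulators of Dlx genes, at 0.721 (0.888). The projection and sensory genes had a median difference of 0.15, and 10 of 12 had a higher mean in Tg. S100a5 differed by 0.71 (95% interval 0.072 to 1.34; limma adjusted p = 0.9998) and Eomes, a T-box factor of mitral and tufted cells, by 0.56 (0.097 to 1.02; limma adjusted p = 0.9998). Eomes is also made in the cerebellum. It read 6.79 on WT replicate 2 and 7.38 to 8.33 on the others, so its difference rests in part on that array. Its r was 0.133, or 0.616 without WT replicate 2. Doc2g and Omp, genes of tufted and of sensory cells, had an r of 0.856 (0.957) and 0.891 (0.939).

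Lists of other regions and cell types were read for comparison. Cerebellar genes had a median r of -0.405 with 0 of 15 above 0.5, and Grm4, a glutamate receptor, differed by 0.16. Grm4 was lowest on WT replicate 2, at 9.49, so its difference rests at least in part on that array. The cerebellar list mean differed by 0.261, and by -0.162 without that array. Striatal genes had a median r of 0.106 (-0.335 without WT replicate 2). Of that list 0 of 13 had a higher mean in Tg, with Rgs9, a regulator of G protein signalling, at -0.15. Rgs9 read 10.41 on WT replicate 2 and 9.96 to 10.15 on the others. The striatal list mean differed by -0.080, and by -0.045 without that array. Cortical and hippocampal genes had a median r of 0.127, with Lmo3 at a difference of -0.10. Paralogs of the members had a median r of 0.175. Among them Sp7, dim here and known from bone, differed by 0.18 with 5 of 5 Tg arrays above every WT array (two-sided exact permutation p = 0.00794, limma adjusted p = 0.9998), and Lhx5 differed by -0.16.

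Microglial markers had a median r of 0.509 (0.438 without WT replicate 2), with 5 of 8 above 0.5. Their list mean was 8.93 to 9.20 in WT, highest on WT replicate 2, and 9.01 to 9.09 in Tg, and C1qb, a complement gene, differed by 0.08. Neuron, astrocyte, oligodendrocyte and endothelial markers had a median r of 0.048, -0.112, 0.128 and 0.0091. Without WT replicate 2 these were 0.085, 0.322, 0.056 and 0.216. The astrocyte list mean had an r of -0.047 with the member mean, and 0.641 without that array. The lowest p of each belonged to Rbfox3 (difference -0.06), Aldoc (0.05), Cnp (-0.05) and Cldn5 (0.15). Rbfox3 and Aldoc were lowest on WT replicate 2, at 11.61 and 13.02. The astrocyte list mean differed by 0.020, and by -0.0066 without that array. The part of these cell types in the members' values was not tested.

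**Figure D5:**
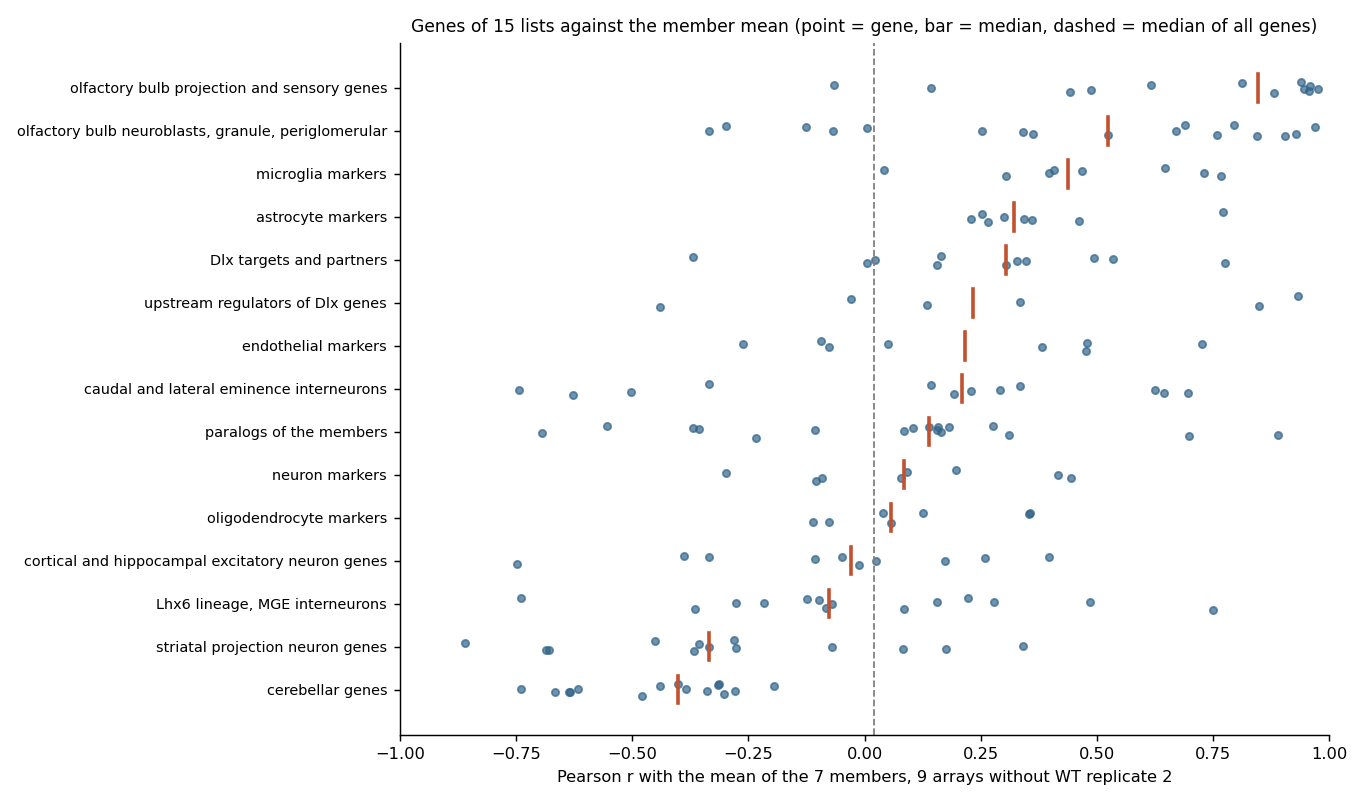
Pearson r of each gene of 15 lists with the mean of the 7 members (x axis) over the 9 arrays without WT replicate 2, 1 point per gene, with the list median as a bar and the median of all genes as a dashed line. Olfactory bulb projection and sensory genes lie farthest right, with a median of 0.847, and striatal and cerebellar genes farthest left.

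Among 12903 genes in the upper 60% of signal, members left out, the 10 most like the member mean were Zar1 (r = 0.942), Shisa3, Atp6v1e2, Ptpro, Fam20c, Chac1, Zfp511, Fam43b, Castor1 and Omp (r = 0.891). The 95th percentile of r over these genes was 0.590. Shisa3 and Omp are on the olfactory bulb projection and sensory list. Of the 10 genes, 8 were highest on Tg replicate 3, and Atp6v1e2 and Zfp511 on WT replicate 2. Without WT replicate 2, 3 of the 10 kept a place among the 10 most alike. These are Zar1, Shisa3 and Atp6v1e2, at 0.974, 0.946 and 0.983.

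Gene by gene, Dlx1 was most like Cpne4 (r = 0.977), Dlx2 like Frzb (0.908), Dlx5 like Clptm1 (0.939) and Dlx6 like Tent5c (0.961). Lhx6 was most like Egfl7 (0.941), Sp8 like 4732440D04Rik (0.931) and Sp9 like Atp6v1e2 (0.936). Each of these r was above that of the member most like the gene. For Dlx1, Dlx2 and Sp9, 4 of the 6 other members exceeded the 95th percentile of r over all ranked genes (0.534, 0.487 and 0.619). For Dlx5 and Sp8 it was 2 of 6, for Lhx6 1 of 6 and for Dlx6 0 of 6.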

How the data were processed

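The authors' deposited table holds 1 log2 expression value per probe set and array. Per the submitters' processing notes it was made with Expression Console 1.1.2 of Affymetrix. Its background correction, normalization and genome build: not given in the sources used here. No further normalization was applied. Array values can understate the ratios of dim probe sets, and the extent of this here was not tested. Control rows (6612, 18.6% of 35556) were left out. The remaining 28944 probe sets had 1 gene (21789), several (1621) or none named here (5534). Of the symbols, 21698 were updated through Entrez identifiers to GRCm38.p6 and 91 kept. Each gene took its brightest probe set.

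Tg and WT (5 arrays each) were compared with limma 3.58.1 (lmFit, eBayes) in R 4.3.3, without covariates, Benjamini-Hochberg adjusted over all 28944 probe sets. The limma step and the correlation step were tested on simulated data. Single members also had exact permutation tests over arrays. Correlations used 100000 resamples of the pairing (exact within genotypes for deviations), adjusted over 21 pairs and 21 relations with list means. The ranking of like genes covered the upper 60% of signal. Arrays have no read depth, and their number limits the precision.

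The members and the 15 gene lists were chosen with earlier results of these data known. Named were the members with all their probe sets, Glo1, list genes with an unadjusted p under 0.05 (up to 4 per list, or else that of lowest p), the 10 genes most like the member mean, Nxph1 and Ndufa4. Other list genes, and the gene most like each member, were chosen after their values were seen. Alternatives covered normalization, centring, filters on dim probe sets, variance models, array weights, the replicate block, the serial number, gene summaries, genotype deviations and each array left out.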

Additional observations from a re-analysis of the deposited data

Results flagged for a closer look

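In 46 groups of 5 arrays (members and list means in each genotype), 5 held an array far from the other 4, and all 5 were WT replicate 2. Chance gives about 1 in 20 such groups. Dlx6 read 8.603 there, against 8.129 to 8.185 on the other WT arrays. The mean of Dlx targets and partners was 9.431, against 9.327 to 9.346. The cerebellar list mean was 8.524, against 10.57 to 10.67. The striatal list mean was 10.08, against 9.892 to 9.923, and the astrocyte list mean 10.9, against 11.02 to 11.06. Of the members, Dlx5, Lhx6, Sp8 and Sp9 were also highest of the WT arrays on that brain, without standing so far apart.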

How the results depend on the processing

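The count of members past the threshold was 0 in all 19 alternatives, and 7 to 11 of all probe sets passed (10 as reported, 11 with the replicate block). Sp8 was too dim for the upper 60% filter, and no member was in the upper 30%. Dlx1, Dlx2 and Sp8 kept their direction in every alternative run. The sign of Dlx5 turned with array weights (0.04583) and that of Lhx6 with quantile normalization (0.01667) and array weights (0.02197). With single arrays left out, Dlx5 ranged from -0.08983 to 0.04126, Dlx6 from -0.1126 to 0.006164, Lhx6 from -0.021 to 0.02398 and Sp9 from -0.01176 to 0.09955. The 1 pair of members past the threshold became 5 with quantile normalization, 0 for deviations from genotype means, 0 with the replicate block and 0 to 3 with single arrays left out. The 2 relations with list means became 3 with quantile normalization, 1 for deviations, 0 with the replicate block and 1 to 4 with single arrays left out. They became 3 with Eomes and Gng13 left out of the olfactory bulb list, where Sp9 also passed (r = 0.8071, permutation adjusted p = 0.01596). The r of Dlx6 with the olfactory bulb list turned from -0.1048 to 0.05833 for deviations, 0.2935 with the replicate block and 0.1092 without Eomes and Gng13, an alternative chosen after seeing the data. With single arrays left out it ranged from -0.338 to 0.4576, that of Lhx6 with the same list from -0.1706 to 0.5432 and that of Dlx6 with the cerebellar list from -0.9636 to 0.04458. The cause of these changes was not tested. Same-numbered arrays had r of deviations from -0.472 to 0.453. Whether equal numbers mark a shared litter or run was not tested, and the labels do not say. The block correlations rest on 5 differences, whose few possible orders leave little room for a permutation p that passes after adjustment. The counts of 0 with the replicate block therefore cannot show that a relation was lost. With the block, r was 0.859 for Dlx1 with Dlx2 (0.862 as reported). With the olfactory bulb list it was 0.917 for Dlx1 and 0.652 for Dlx2 (0.953 and 0.798 as reported).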
